A study of Mus musculus with 7 samples.

Results

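Simple epithelium of the embryonic mouse nose, marked by the adhesion gene Epcam and the keratins Krt8 and Krt18 and low in the basal keratins, was described by droplet single-cell RNA sequencing. Its cells were chosen by UMIs (molecular tags that mark each captured transcript once). A cell entered with at least 1 Epcam UMI, at least 2 UMIs of Krt8 and Krt18 together, at most 1 UMI of Krt5, Krt14, Krt15 and Trp63 together, 0 UMIs of Cyp2g1 and of Stmn3, and at most 1 UMI of Gap43. Krt5, Krt14, Krt15 and Trp63 mark basal cells, Cyp2g1 sustentacular cells, and Stmn3 and Gap43 neurons. The rule selected 1000 of the 31465 cells that passed the cell filter (a minimum of 500 genes and a mitochondrial share of 10% or less). These 10 genes chose the cells, so their values describe the choice and support nothing else.

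Noses from embryonic day 14.5 were digested with papain and collagenase, and their cells were stored frozen before 3′ libraries were made with the 10x Chromium system. The 5 wild-type (WT) libraries come from CD1 IGS mice. The 2 other libraries come from 1 ProKR2iCre/R26tdTomato nose, in which Cre made from the Prokr2 gene switches on the red reporter tdTomato at the Rosa26 locus. Its strain label names a B6;SJL background, the allele Prokr2em1(cre)Cfe and the reporter allele Gt(ROSA)26Sortm14(CAG-tdTomato)Hze. Data came both from sorted and from unsorted cells of that nose, and the labels do not say which library is which. These are therefore called Prokr2Cre library 1 and library 2 and were neither averaged nor tested. Genotype, strain and sorting cannot be told apart between them and the WT libraries. By its title the study is about the terminal nerve and GnRH-1 neurons, and the epithelium described here comes from the same noses.

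In the nasal cavity, respiratory epithelium warms and cleans the air, and olfactory epithelium holds the sensory neurons and their supporting sustentacular cells. Respiratory epithelium carries multiciliated cells, whose beating cilia move mucus, and secretory cells, which release mucins and antimicrobial proteins. Multiciliated cells are made when the regulators Gmnc, Mcidas, Ccno and Deup1 drive the multiplication of centrioles and Foxj1 and the Rfx factors switch on the genes of the motile axoneme. Basal cells hold keratins 5 and 14 and rest on the basement membrane.

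WT replicates 3 and 4 shared 7386 barcodes, against at most 34 for any other pair, and replicate 3 was left out, which leaves 4 WT captures. Total depth ranged from 16773781 to 89800259 UMIs per library. Median depth within the simple epithelium was 8781 to 11825 UMIs per cell in WT captures and 17390 to 23519 in the Prokr2Cre libraries. Doublets were kept. Scrublet's automatic threshold marked at most 0.25% of barcodes, so the highest scores were marked at a fixed rate, which took 4.35% to 12.8% of the simple epithelial cells per WT capture and 5.32% to 9.31% of all kept cells.

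Simple epithelial cells made up 3.92%, 4.18%, 1.79% and 2.12% of the filtered cells of WT replicates 1, 2, 4 and 5, which is 305, 439, 126 and 69 cells. The WT mean was 3.00% ± 1.22 (SD, n = 4). Prokr2Cre library 1 held 46 such cells of 1789 (2.57%, exact 95% binomial interval 1.89 to 3.42) and library 2 held 15 of 1111 (1.35%, interval 0.758 to 2.22). Intervals cover counting error only. Library 1 lay inside the WT range and library 2 below it. No test was made, since the rule sets these shares and both libraries come from 1 nose.

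The chosen cells carried the defining markers in every WT capture, as the rule sets. Epcam, a cell adhesion molecule of epithelia, measured 919, 1071, 1021 and 989 CPM in WT replicates 1, 2, 4 and 5 (CPM: UMIs of a gene scaled to a common total for each class and library). Krt8 measured 800, 455, 339 and 446 CPM, and its partner keratin Krt18 1176, 843, 740 and 733 CPM, both highest in replicate 1.

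The borders of the choice were not sharp. Of the selected cells, 837 held 0 basal UMIs and 163 held 1, while 65 cells that met all other conditions were left out for 2 basal UMIs and 47 for 3. Cells inside the border with 1 basal UMI had 189 CPM of Krt17, a keratin of basal cells, and those just outside with 2 had 171 CPM. For Aldh1a3, which makes retinoic acid, the pooled levels on either side were 201 and 202 CPM. The Cyp2g1 condition left out 108 cells with 1 UMI and 299 with at least 2. Those with 1 Cyp2g1 UMI had 264 CPM of Otx2, a homeobox factor of the olfactory placode and forebrain. Across the basal border Otx2 differed more, with 97.8 CPM inside and 175 CPM outside, as did Sfn with 213 and 144 CPM. Perp had 64.0 and 66.1 CPM on the same sides, and Ermn 52.2 and 58.6 CPM.

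Genes outside the choice were compared in 2 ways within the WT captures, each time with UMIs summed per capture and class. The first comparison asked how simple epithelium differs from basal epithelium, defined as Epcam-positive cells with at least 4 basal UMIs (1160 cells in all libraries). The second set it against sustentacular epithelium, cells that met every condition except that they held Cyp2g1 (407 cells). The test was edgeR's quasi-likelihood F test, blocked by capture, with p-values adjusted by Benjamini-Hochberg over all genes and a threshold of 0.05. Since the classes were cut by genes of the same cells, genes that go with the basal keratins or with Cyp2g1 had to follow, and an adjusted p speaks for the consistency of a difference over 4 captures. Nothing in the labels says whether the WT noses were from separate litters.

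Against basal epithelium, 19.6% of 11864 genes passed the test, 10.1% higher and 9.54% lower in simple epithelium. The tight junction genes Cldn3 and Cldn7 were higher, while genes of stratified epithelium were lower as a group. All 17 tested genes of the list of basal and stratified epithelium were lower, with a median log2 fold change of -3.78, against 0.02 over all genes tested. This list was composed around the basal side of the choice, so its direction was set by the choice of cells. Krt17 measured 108, 94.6, 89.2 and 110 CPM in the simple epithelium of WT replicates 1, 2, 4 and 5, and 1695, 716, 819 and 1703 CPM in basal epithelium. The groups did not overlap (log2 fold change -3.51 ± 0.20 SE).

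The periderm and surface genes were lower too, 6 of 6 tested of 10 listed, with a median of -4.99, or -3.64 with Tgm1 at its bound. Krtdap, a protein of differentiating keratinocytes, was 1.92, 0.850, 0 and 1.17 CPM in simple epithelium and 565, 430, 458 and 373 CPM in basal epithelium. Cstdc5, a cystatin, had the largest negative fitted log2 fold change among the genes named by size, -10.23 ± 0.28 (edgeR, adjusted p = 1.39e-07). Its level in simple epithelium was 0, 0.212, 0 and 0 CPM in WT replicates 1, 2, 4 and 5, so that size rests on counts near 0. Stfa3, Dsg1a and Tgm1 had 0 UMIs in the simple epithelium of all 4 captures, and their fold is a lower bound against a floor of 3 counts over the class. Stfa3, another cystatin-like inhibitor, was at least 99.4-fold lower. The desmosomal cadherin Dsg1a was at least 84.8-fold lower, and the cross-linking enzyme Tgm1 at least 16.6-fold lower.

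Simple keratins, junction genes and general epithelial regulators moved both ways against basal epithelium: 7 of 21 tested were higher and 5 lower, with a median of 0.20. The claudin Cldn7 measured 692, 306, 371 and 259 CPM in simple epithelium and 198, 89.7, 183 and 96.5 CPM in basal epithelium. Every simple value exceeded every basal value (log2 fold change 1.52 ± 0.13 SE; edgeR, adjusted p = 6.06e-05). Cldn3 was higher by 1.70 ± 0.14, the junction scaffold Tjp3 by 1.78 ± 0.18 and the keratin Krt23 by 1.08 ± 0.18. Krt19 was lower (-1.23 ± 0.23). The splicing factors Esrp1 (-0.86 ± 0.12) and Esrp2 (-0.85 ± 0.20) and the cadherin Cdh1 (-0.52 ± 0.11) were lower too. Esrp2 lost its call without WT replicate 2 or 4 (edgeR, adjusted p = 0.0981 and 0.0890). Krt7 and the grainyhead factor Grhl2 did not pass the test.

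**Figure D1:**
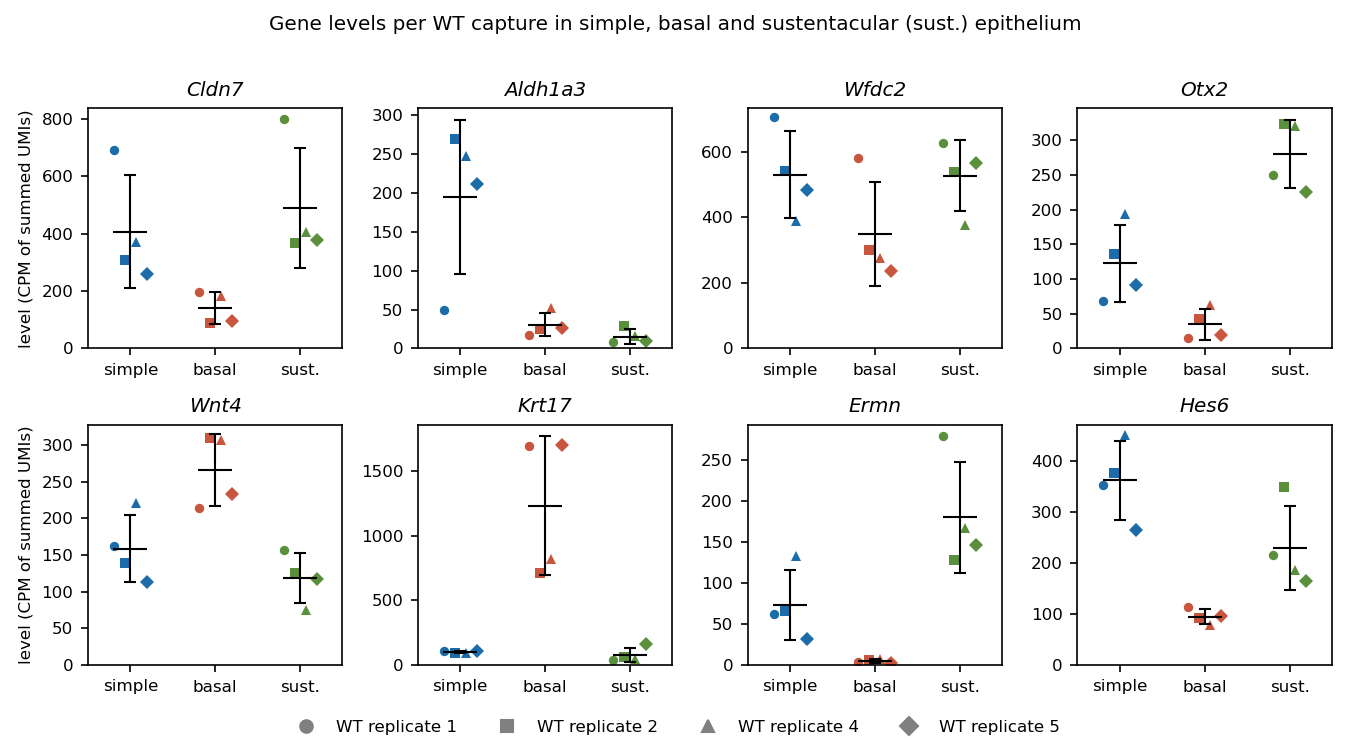
Level of 8 genes (CPM of summed UMIs, linear axis from 0) in simple, basal and sustentacular epithelium. Each point is 1 WT capture, and the bars are the mean and SD over 4 captures; for Aldh1a3 the simple values reach 270 CPM while WT replicate 1 lies at 49.8, and for Krt17 all simple values lie near 100 CPM, below all basal values.

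Of the respiratory and airway genes, 5 of the 13 tested (16 listed) were higher than in basal epithelium and 1 lower (median log2 fold change 0.20). Aldh1a3, the retinaldehyde dehydrogenase of the nasal region, measured 49.8, 270, 248 and 211 CPM in the simple epithelium of WT replicates 1, 2, 4 and 5. Basal epithelium had 17.6, 25.5, 51.6 and 26.2 CPM. Replicate 1 stood well below the other captures, and its simple value lay under the basal value of replicate 4. The log2 fold change was 2.58 ± 0.27 (edgeR, adjusted p = 0.000211), higher in 4 of 4 captures. Prokr2Cre library 1 had 253 CPM and library 2 had 44.1 CPM.

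The progenitor factor Sox2 was higher by 1.12 ± 0.18, the membrane mucin Muc1 by 1.79 ± 0.30 and the tetraspanin Tspan1 by 0.96 ± 0.23. Slc12a2, the sodium-potassium-chloride cotransporter that feeds fluid secretion, was lower (-0.43 ± 0.13; edgeR, adjusted p = 0.0417). The call of Tspan1 was lost without WT replicate 1 or 2, and that of Slc12a2 without replicate 1, 2 or 4 (edgeR, adjusted p of 0.0958 to 0.170). Foxa1, a pioneer factor of airway epithelium, measured 35.6, 15.1, 24.6 and 31.7 CPM in simple epithelium and 28.1, 14.2, 56.4 and 16.2 CPM in basal epithelium. These ranges overlapped and the test was not passed (edgeR, adjusted p = 0.983). Cbr2, a carbonyl reductase of airway secretory cells, measured 443, 93.1, 76.5 and 121 CPM in simple epithelium, with replicate 1 apart from the rest. It did not pass the test against basal epithelium (edgeR, adjusted p = 0.376). Nkx2-1, the factor of lung and thyroid, had 0 UMIs in simple epithelium of every library.

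After thinning each cell to 2000 UMIs, the share of simple epithelial cells with an Aldh1a3 UMI was 4.23%, 23.4%, 19.2% and 16.4% in WT replicates 1, 2, 4 and 5. Without thinning the shares were 16.4%, 41.2%, 42.1% and 27.5%. Endothelial cells, which should lack Aldh1a3, had thinned shares of 0.901% in replicate 1 and 0 in the other WT captures, at median depths of 8881 to 17500.5 UMIs. The simple epithelial shares therefore lay above that background in each WT capture.

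The summed level of the respiratory list was 1286, 1059, 1037 and 1021 CPM in the simple epithelium of WT replicates 1, 2, 4 and 5, and 1259 and 837 CPM in the Prokr2Cre libraries. Single genes were less even. Sox2 measured 429 and 279 CPM in Prokr2Cre libraries 1 and 2, above the WT range of 146 to 248 CPM. These are values without their counting error, and library 2 held 15 simple epithelial cells. Cbr2 measured under 5 CPM in library 1 and 0 in library 2, below the WT range.

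Ciliated cell genes differed widely between captures. The summed level of the 25 structural genes of the motile cilium was 3143 CPM in WT replicate 1, and 70.3, 126 and 163 CPM in replicates 2, 4 and 5. All 25 were highest in replicate 1, and 18 of them exceeded the next capture more than 10-fold. The Prokr2Cre libraries had 34.5 and 55.1 CPM. Replicate 1 was the sole WT library counted with Cell Ranger 6.0.1, whereas the Prokr2Cre libraries were counted with version 6.1.2 and the other WT libraries with 7.0.0. Counting version and capture cannot be told apart for replicate 1 among WT libraries. Within that same library the sum was 407 CPM in basal, 55.6 CPM in sustentacular and 51.5 CPM in endothelial cells.

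**Figure D2:**
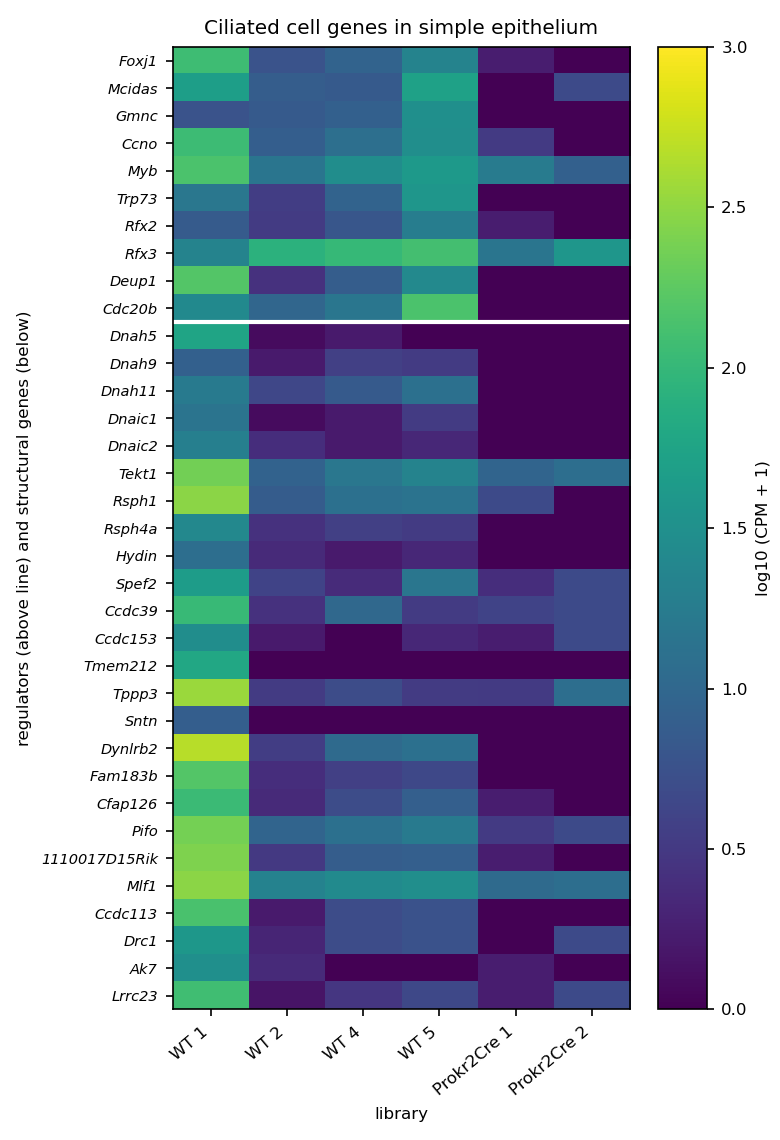
Levels of 10 ciliated cell regulators and 25 structural genes of the motile cilium in simple epithelium of 6 libraries, as log10 of CPM plus 1 (color). WT replicate 1 is the brightest column for all structural genes, whereas Gmnc and Cdc20b are brightest in WT replicate 5.

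Among structural genes, Dynlrb2, a light chain of the dynein motor, measured 475, 2.55, 9.98 and 11.7 CPM. Tppp3, which binds tubulin, measured 358, 2.34, 3.99 and 2.35 CPM. Rsph1, of the radial spoke, measured 301, 6.38, 11.98 and 12.9 CPM. In each case replicate 1 stood alone and the other captures lay close to one another. Tmem212 had 62.6 CPM in replicate 1 and 0 UMIs in the other 5 libraries. The outer arm dynein Dnah5 measured 56.0 CPM in replicate 1 and at most 0.665 CPM elsewhere in WT.

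The regulators were spread differently. Foxj1, the master factor of motile cilia, measured 116, 4.89, 7.98 and 21.1 CPM, and Deup1, which builds the centriole-producing deuterosome, 158, 1.70, 6.65 and 24.7 CPM. Mcidas, which starts the multiciliated program, measured 46.9, 6.59, 5.99 and 50.5 CPM, so that replicates 1 and 5 were both high. Gmnc, which acts at the start of that program, was 30.5 CPM in replicate 5 and 4.90, 6.16 and 7.32 CPM in replicates 1, 2 and 4. Cdc20b followed the same pattern with 141 CPM in replicate 5 and 8.71 to 25.3 CPM in the others. Of the 10 regulators, 4 were highest in replicate 1 and 6 in replicate 5. Rfx3, a factor that binds the promoters of cilium genes, measured 21.1, 13.5 and 36.7 CPM in the 3 libraries counted with Cell Ranger 6 and 83.3 to 127 CPM in the 3 counted with version 7.0.0, and these cannot be told apart from the counting.

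Against basal epithelium, 4 of 10 regulators and 10 of the 12 structural genes that passed the count filter were higher and none lower. Structural genes that passed the filter mainly through the simple class, where they are high, had to differ, so these counts are a description. With no filter, 7 of 10 regulators and 23 of 25 structural genes were higher. Rsph1 was higher by 2.68 ± 0.18 (edgeR, adjusted p = 1.88e-05), with the basal level at 39.6, 1.29, 2.79 and 2.71 CPM. Each simple value exceeded the basal value of its own capture, although the groups overlapped across captures. The other 9 higher structural genes, among them Pifo, Cfap126, Ccdc113 and Tekt1, had log2 fold changes of 1.75 to 2.98. Mlf1 and Dnah11 did not pass the test. Foxj1 was higher by 1.45 ± 0.43 (edgeR, adjusted p = 0.0440) and in 3 of 4 captures, and Deup1 by 2.19 ± 0.46, also in 3 of 4. Mcidas (1.42 ± 0.30) and Ccno (1.14 ± 0.31) were higher in 4 of 4. Without WT replicate 1, 0 of 9 tested regulators passed edgeR's test (3 at an unadjusted p under 0.05) and 3 of 5 tested structural genes did. Foxj1 then had a log2 fold change of 0.86 (edgeR, adjusted p = 0.351), Ccno 0.54 (0.264) and Mcidas 1.08 (0.0725), and Deup1 was no longer tested. Foxj1 also lost its call without replicate 4 or 5 (edgeR, adjusted p = 0.101 and 0.106). Without replicate 5, 1 of 10 regulators passed, and without replicate 2, 6 of 10. DESeq2 called 2 of 10 regulators and 7 of 12 structural genes. Under a stricter cell filter (a minimum of 1000 genes, a mitochondrial share of 5% or less), edgeR called 0 of 10 regulators (1 at an unadjusted p under 0.05) and 7 of 9 structural genes. With basal cells that also held at least 2 UMIs of Krt8 and Krt18 it called 1 of 10 and 5 of 7. With no capture block edgeR called 0 of 10 and 0 of 12, with 1 regulator and 0 structural genes at an unadjusted p under 0.05.

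The promoters of the structural genes were searched for a letter pattern that the choice of cells did not use. Rfx factors bind the X-box, whose half-site reads GTTGCC, or GGCAAC on the other strand. This motif was picked with the results known. RefSeq promoters of build GRCm38.p6 were found for 22 of the 27 listed structural gene symbols, and 13 of these (59.1%) held the half-site on either strand in the 250 bases before the start. Of 27025 genes in the table, 11.8% did. In the last 100 bases, 11 of the 22 held it, and 5.46% of all genes. Among regulators 4 of 9 promoters held it, among respiratory genes 10.0%, among secretory genes 4.76% and among basal genes 0 of 8. A match describes letters and not a bound site. The last 100 bases before the start are printed for the 4 genes of highest level in WT replicate 1, out of 5 whose window held the motif and no annotated exon. They are written 5′ to 3′ on the strand of the gene, with half-sites in capitals.
1110017D15Rik: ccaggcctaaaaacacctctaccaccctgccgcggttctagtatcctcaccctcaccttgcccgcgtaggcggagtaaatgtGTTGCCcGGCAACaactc
Tekt1: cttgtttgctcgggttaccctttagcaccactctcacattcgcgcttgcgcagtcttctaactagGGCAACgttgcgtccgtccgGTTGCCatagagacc
Fam183b: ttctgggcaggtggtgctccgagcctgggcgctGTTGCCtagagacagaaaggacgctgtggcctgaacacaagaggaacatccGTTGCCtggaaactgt
Lrrc23: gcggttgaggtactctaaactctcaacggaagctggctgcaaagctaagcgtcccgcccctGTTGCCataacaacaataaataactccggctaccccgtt

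The 4 windows lie on the minus strand of GRCm38.p6, at chr4:41507765-41507864 for 1110017D15Rik, chr11:72361883-72361982 for Tekt1, chr11:58801961-58802060 for Fam183b and chr6:124779728-124779827 for Lrrc23. In 1110017D15Rik, an axonemal protein gene, a half-site in each orientation stood 18 and 11 bases before the start, with 1 base between them. Tekt1, a tektin of the axoneme, and Fam183b each held 2 half-sites, and Lrrc23, a radial spoke protein, held 1. Their levels in simple epithelium of WT replicate 1 were 265, 229, 158 and 118 CPM in that order, and at most 21.1 CPM in the other WT captures.

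A minority of cells carried these genes. Those with UMIs of at least 5 structural genes were 57 of 305 cells in WT replicate 1, or 18.7% (exact 95% interval 14.5 to 23.5). In WT replicates 2, 4 and 5 they were 7 of 439, 4 of 126 and 1 of 69 cells, or 1.59%, 3.17% and 1.45%. Prokr2Cre library 1 had 0 of 46 (exact upper bound 7.71%) and library 2 had 0 of 15 (exact upper bound 21.8%). Replicate 1 lay outside the intervals of the other WT captures, whose upper bounds were at most 7.93%. A further group held UMIs of at least 2 regulators, with Rfx2 and Rfx3 not counted, but of fewer than 5 structural genes. These cells were 19, 14, 7 and 7 in WT replicates 1, 2, 4 and 5. This is 6.23%, 3.19%, 5.56% and 10.1% of the simple epithelial cells, highest in replicate 5, with exact 95% intervals that overlapped in every pair of WT captures. After thinning to 2000 UMIs, 10.9%, 0.703%, 0.8% and 1.82% of the simple epithelial cells of replicates 1, 2, 4 and 5 held a Foxj1 UMI, against 0 endothelial cells.

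Cells with at least 1 Foxj1 UMI numbered 63 of 305 in WT replicate 1, and 7, 1 and 4 in replicates 2, 4 and 5. With at least 10 cells in replicate 1 alone, the planned test of cells with against cells without Foxj1 could not be made. Replicate 1 is therefore described by values, and intervals (exact, 95%) cover counting error only. The cells with Foxj1 were deeper, with a median of 19139 UMIs against 10198. Of 6534 genes with at least 20 CPM on either side, 266 had a ratio whose lower bound exceeded 10, and all 25 structural genes were among them.

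The axonemal dynein gene Dynlrb2 measured 1453 CPM in cells with Foxj1 and 2.21 CPM in those without, a ratio of 657 (318 to 1635). Deup1 had 477 and 3.16 CPM, and Myb, which acts early in multiciliogenesis, 387 and 19.6 CPM. Fam183b had 485 CPM against 0 UMIs, at least 512-fold higher by a floor of 3 counts. Agr2, a protein disulfide isomerase of secretory cells, had 201 and 22.4 CPM, a ratio of 8.96 (6.90 to 11.8). The cell-cycle kinase Cdk1 was at 366 and 164 CPM while the proliferation marker Mki67 was at 47.7 and 117 CPM.

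Other genes were lower in the cells with Foxj1. Aldh1a3 measured 7.18 CPM with Foxj1 and 70.5 CPM without, Otx2 18.9 and 92.9 CPM, Pax6 22.9 and 109 CPM, and Ermn, a gene of sustentacular cells, 11.1 and 86.6 CPM. Bpifa1, a secreted antimicrobial protein of upper airways, differed little, 1746 against 2163 CPM, as did Wfdc2 with 801 and 661 CPM. Of the 50 cells of replicate 1 with Aldh1a3, 4 were among the 57 with at least 5 structural genes. Of 59 cells with at least 5 Bpifa1 UMIs, 15 were.

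**Figure D3:**
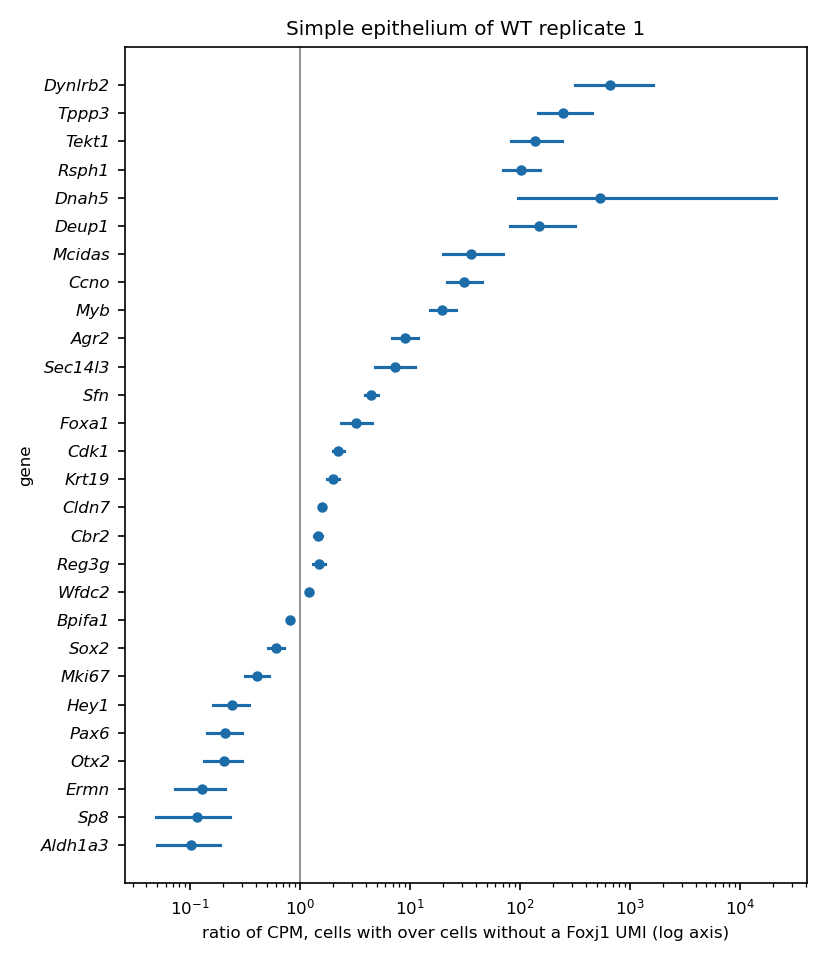
Ratio of CPM between simple epithelial cells with (63) and without (242) a Foxj1 UMI in WT replicate 1, on a log axis; points are ratios and lines exact 95% counting intervals. Dynlrb2, Tppp3, Tekt1 and Rsph1 lie above 100, secretory genes Cbr2, Reg3g, Wfdc2 and Bpifa1 lie between 0.807 and 1.49, and Aldh1a3 lies at 0.102.

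Secretory and gland genes were mostly scarce. Of the 30 listed, 13 had a WT mean under 1 CPM and 6 had 0 UMIs in the simple epithelium of every library: Scgb1a1, Scgb3a2, Dcpp1, Obp1a, Obp2a and Azgp1, which code for secretoglobins, a demilune protein, odorant-binding proteins and a zinc-binding glycoprotein. In WT the gel-forming mucins Muc5ac and Muc5b were at most 1.17 CPM. Bpifa1 measured 2027, 71.2, 11.98 and 135 CPM in WT replicates 1, 2, 4 and 5 and 0 in both Prokr2Cre libraries. After thinning, 18.3%, 3.28%, 2.40% and 3.64% of WT cells held a Bpifa1 UMI, against 1.80% of endothelial cells in replicate 1 and 0 in the other WT captures. In simple epithelium replicate 1 was again far above the others. Sustentacular epithelium had thinned Bpifa1 shares of 10.3%, 4.14%, 2.00% and 12.5% in WT replicates 1, 2, 4 and 5, the last from 2 cells. Basal epithelium had 4.25%, 1.12%, 1.05% and 0.862%, so Bpifa1 was not particular to simple epithelium.

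Reg3g, an antibacterial lectin, measured 226, 30.4, 73.2 and 114 CPM, and Wfdc2, a whey acidic protein of airway secretions, measured 707, 542, 388 and 485 CPM. Wfdc2 was spread evenly across libraries, with 423 and 437 CPM in the Prokr2Cre libraries. After thinning, 63.0%, 60.2%, 52.0% and 47.3% of simple epithelial cells in the WT captures held a Wfdc2 UMI, against at most 2.70% of endothelial cells. Against basal epithelium, 5 of 13 tested secretory genes were higher and 3 lower, with a median of 0.30. Wfdc2 was higher by 0.65 ± 0.13 (edgeR, adjusted p = 0.00685), Reg3g by 1.12 ± 0.22, the membrane mucin Muc4 by 1.81 ± 0.37, the water channel Aqp4 by 1.08 ± 0.21 and Agr2 by 1.93 ± 0.42. Fxyd3, a regulator of the sodium pump, was lower (-3.50 ± 0.26), and so were the gland factor Sox9 (-0.86 ± 0.23) and the water channel Aqp3 (-0.68 ± 0.13). The call of Sox9 was lost without WT replicate 2, 4 or 5 (edgeR, adjusted p of 0.0689 to 0.0772), and Agr2 was not tested without replicate 1 or 2. Bpifa1 did not pass (1.07 ± 0.44; edgeR, adjusted p = 0.127).

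Regional transcription factors separated the classes further. Against basal epithelium 9 of 18 tested were higher and 4 lower. Otx2 measured 68.8, 137, 194 and 91.6 CPM in simple epithelium and 14.4, 42.7, 62.7 and 18.9 CPM in basal epithelium, with no overlap (1.91 ± 0.13; edgeR, adjusted p = 1.79e-05). Pax6, a factor of the eye and olfactory placode, was higher by 2.19 ± 0.16, Emx2 by 2.55 ± 0.34, Sp8 by 2.15 ± 0.16 and Lhx2 by 2.06 ± 0.29. Foxe1, a factor of oral and thyroid epithelium, was lower (-5.13 ± 0.33), as was Barx2 (-4.09 ± 0.26). Isl1 and Pax9 did not pass the test.

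Of the signalling list, 14 of 24 tested genes were lower than in basal epithelium and 3 higher, with a median of -0.97. Wnt6, a ligand, measured 1.07, 1.49, 1.33 and 3.52 CPM in simple epithelium and 76.3, 161, 74.6 and 161 CPM in basal epithelium (-6.26 ± 0.20; edgeR, adjusted p = 3.42e-07). The receptors Fgfr2 (-1.81 ± 0.09) and Notch1 (-1.65 ± 0.16) were lower, as were the Notch ligand Jag2 (-1.56 ± 0.19), the hedgehog receptor Ptch1 (-1.30 ± 0.22) and the hedgehog target Gli1 (-2.72 ± 0.44). Higher were the ligand Fgf20 (2.87 ± 0.31), the Notch target Hey1 (2.05 ± 0.14) and the BMP target Id1 (0.71 ± 0.09).

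Among genes named by size alone, Gstm1, a glutathione transferase, measured 2575, 3191, 2076 and 2216 CPM in simple epithelium and 177, 242, 281 and 60.9 CPM in basal epithelium (3.86 ± 0.28; edgeR, adjusted p = 2.80e-05). Sult1e1, a sulfotransferase, measured 222, 233, 236 and 104 CPM against 19.1, 29.2, 9.06 and 4.96 CPM. The metallothionein Mt3, the proton pump subunit Atp6v1g3 and the thyroid hormone-binding protein Crym were higher by 4.99 ± 0.32, 6.07 ± 0.33 and 4.08 ± 0.27. None of the simple values overlapped the basal values for Gstm1, Sult1e1, Mt3, Atp6v1g3 or Crym. These genes were picked for large changes of 1 direction in every capture, which largely sets that separation. Atp6v1g3, at most 0.740 CPM in basal epithelium, passed the count filter through the simple class.

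The list counts against basal epithelium moved with the basal class and the block. With basal cells that also held at least 2 UMIs of Krt8 and Krt18, 3 respiratory genes were higher and 3 lower, 2 secretory genes higher and 2 lower, 5 regional factors higher and 6 lower, 4 keratin and junction genes higher and 6 lower, and 9 signalling genes lower. With no capture block edgeR called 0 secretory genes higher and 1 lower (4 at an unadjusted p under 0.05), 5 regional factors higher and 3 lower, and 3 keratin and junction genes higher and 0 lower.

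Markers of other cells moved with this comparison, and their part in the results was not tested. Of the 10 tested genes of the olfactory neuronal lineage 9 were higher, among them Hes6, Insm1 and Neurod1 (1.90 ± 0.18, 3.23 ± 0.25 and 4.01 ± 0.50). Of 5 tested sustentacular genes 3 were higher, led by Ermn (3.87 ± 0.18), and without WT replicate 5, 5 of 7 tested were. Of 14 cell-cycle genes 5 were higher, with a median of 0.34. Without WT replicate 2 or without replicate 4, 1 of the 14 was, as with basal cells that also held at least 2 UMIs of Krt8 and Krt18. Of 6 stress-response genes 5 were lower, Hspa1a among them (-1.57 ± 0.26), and of 3 tested erythroid genes 2 were lower. Without WT replicate 4, 2 of the 6 stress-response genes were lower, and without replicate 5, 3 of them. Of the erythroid genes DESeq2 called 0 of 3, without WT replicate 1 edgeR called 1 higher and 1 lower, and without replicate 2 it called 1 of 2 lower. With no capture block edgeR called 0 cell-cycle, 0 stress-response and 0 erythroid genes (1, 2 and 2 at an unadjusted p under 0.05). The summed erythroid level was 15.3 to 105 CPM in simple epithelium and 18.1 to 1027 CPM in basal epithelium, highest in WT replicate 5 for simple and in replicate 1 for basal epithelium. Of the mesenchyme list 0 of 9 and of the cartilage list 0 of 4 tested genes passed with edgeR (1 and 0 at an unadjusted p under 0.05), and DESeq2 called 0 of either. Other settings gave calls: of the mesenchyme list 1 of 9 was lower without WT replicate 5, under the stricter cell filter and with the basal class that needs Krt8 and Krt18, 2 of 9 were lower with a stricter choice of simple cells, and 2 were higher and 1 lower with no filter on counts. With the highest Scrublet scores left out, 0 of 8 mesenchyme genes passed but 6 had an unadjusted p under 0.05. Of the cartilage list 1 of 3 was lower without WT replicate 1 and 1 of 4 with no filter. The summed immune markers were 47.7, 20.4, 10.7 and 0 CPM in the simple epithelium of WT replicates 1, 2, 4 and 5 and 1.76, 1.29, 0 and 0.451 CPM in basal epithelium. None of these 5 markers passed the count filter. With no filter 4 of 5 were higher in simple epithelium, and without WT replicate 5 both of the 2 then tested were.

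Against sustentacular epithelium fewer genes differed: 6.72% of 10166 passed, 1.94% higher and 4.78% lower in simple epithelium. Of 21 keratin, junction and regulator genes, 0 were higher and 3 lower with edgeR and with DESeq2, and 7 had an unadjusted p under 0.05 with edgeR. Without WT replicate 2 or without replicate 5, 1 was higher, and 2 were higher with a sustentacular class of at least 2 Cyp2g1 UMIs, with the highest Scrublet scores left out or with no filter on counts. Their median was -0.10, against 0.03 over all genes tested. With no capture block, 41 genes passed in all, and 1 respiratory gene higher, 2 secretory genes lower and 1 sustentacular gene lower were the calls among those lists and the regional, ciliated and keratin lists. Whether the 2 comparisons differ in their counts was not tested, and both use the same simple epithelial cells. Of 6 tested sustentacular genes 4 were lower, a list composed around the Cyp2g1 side of the choice. Ermn measured 62.0, 66.3, 133 and 31.7 CPM in simple epithelium and 279, 128, 167 and 146 CPM in sustentacular epithelium (-1.27 ± 0.27; edgeR, adjusted p = 0.0149), lower in 4 of 4 captures though the ranges overlapped.

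Of the respiratory genes, Aldh1a3 was higher than in sustentacular epithelium, where it measured 7.95, 28.2, 15.5 and 9.42 CPM. The groups did not overlap, and the log2 fold change was 3.43 ± 0.20 (edgeR, adjusted p = 4.95e-06). Foxa1 was also higher (1.48 ± 0.31), and Sox2 (-0.76 ± 0.13) and the secreted chaperone Clu (-0.79 ± 0.19) were lower. The other 7 tested respiratory genes did not pass. Foxa1 had a log2 fold change of 1.28 without WT replicate 1 and 1.42 without replicate 4 (edgeR, adjusted p = 0.0697 and 0.0674), and Clu lost its call without replicate 1, 2 or 5 (0.0513 to 0.0893). Among secretory genes the water channels separated the classes. Aqp5, a channel of glands, measured 8.73, 4.04, 2.00 and 1.17 CPM in simple epithelium and 108, 35.8, 36.6 and 212 CPM in sustentacular epithelium (-3.86 ± 0.35). Aqp4 (-2.38 ± 0.19), Aqp3 (-2.32 ± 0.15) and Agr2 (-1.81 ± 0.39) were lower as well, and Fxyd3 was higher (2.09 ± 0.39). Agr2 lost its call without WT replicate 2 or 4, and Fxyd3 without replicate 1 (edgeR, adjusted p of 0.0578 to 0.0754). Without replicate 2, 2 of 11 tested secretory genes were higher and 3 lower.

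Of the ciliated cell genes, 4 of 10 regulators and 4 of 25 structural genes passed the count filter here. Of these, 3 regulators (Ccno, Cdc20b and Myb) and 2 structural genes (Tekt1 and Mlf1) were higher. Genes near 0 in sustentacular epithelium, such as Tekt1 and Ccno, passed the filter through the simple class and had to differ. With no filter, 8 of 10 regulators and 24 of 25 structural genes were higher, in a fit that called 1424 genes in all, 52.2% of them higher. Ccno, a cyclin of the multiciliated program, measured 113, 6.80, 11.3 and 29.4 CPM in simple epithelium and 6.81, 1.09, 4.22 and 0 CPM in sustentacular epithelium (3.63 ± 0.39; edgeR, adjusted p = 0.000184). Tekt1 was higher by 5.13 ± 0.72 and Mlf1 by 3.07 ± 0.49. Without WT replicate 1, 1 of 3 tested regulators and 1 of 3 tested structural genes passed, and Ccno and Tekt1 were no longer tested. Without replicate 2, 6 of 6 tested structural genes passed, and without replicate 5, 4 of 5.

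Of 13 tested regional factors 5 were higher and 2 lower, and without WT replicate 2 or without replicate 4, 3 were higher and 1 lower. Meis1 (1.38 ± 0.22), Meis2 (0.62 ± 0.09), Pax9 (1.93 ± 0.35) and Isl1 (1.11 ± 0.24) were among the higher ones, and Otx2 (-1.25 ± 0.16) and Emx2 (-1.06 ± 0.23) were lower. Isl1 and Emx2 lost their calls without WT replicate 2 or 4 (edgeR, adjusted p of 0.0557 to 0.113). Otx2 lay between the other classes, above basal and below sustentacular epithelium. Of 18 tested signalling genes 2 were lower, Hey1 and Notch2. Of 9 tested basal genes 3 were higher, Perp by 1.47 ± 0.26, Sfn by 1.04 ± 0.23 and Fermt1 by 1.51 ± 0.39, and without WT replicate 1 none of 9 passed edgeR's test (6 at an unadjusted p under 0.05). DESeq2 called 1 of the 9. Of 9 neuronal genes 2 were higher, Hes6 (0.71 ± 0.16) and Tubb3 (1.70 ± 0.37). Hes6 lost its call without replicate 4 or 5, and Tubb3 without replicate 2, 4 or 5. The neuronal list had 5 of 10 higher without replicate 1, 1 of 10 without replicate 2, and 0 of 9 without replicate 4 or without replicate 5 (edgeR; 3 and 4 at an unadjusted p under 0.05). Of 14 cell-cycle genes 0 passed with edgeR, 0 had an unadjusted p under 0.05, and DESeq2 called 0.

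Among genes named by size, Olfm5, an olfactomedin, measured 262, 347, 112 and 479 CPM in simple epithelium and 41.4, 24.4, 0 and 9.42 CPM in sustentacular epithelium (3.63 ± 0.32). The uroplakin Upk3a was higher by 2.60 ± 0.22. Lower genes included the zinc transporter Slc39a2 (-3.20 ± 0.22), the cytochrome P450 Cyp2a5 (-3.86 ± 0.28), the sulfotransferase Sult1c1 (-3.41 ± 0.27) and the flavin monooxygenase Fmo6 (-3.09 ± 0.25). Slc39a2 measured 8.52, 8.29, 7.32 and 8.22 CPM in simple epithelium, below every sustentacular value (57.5 to 119 CPM). The pick by size and direction largely sets that separation.

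**Figure D4:**
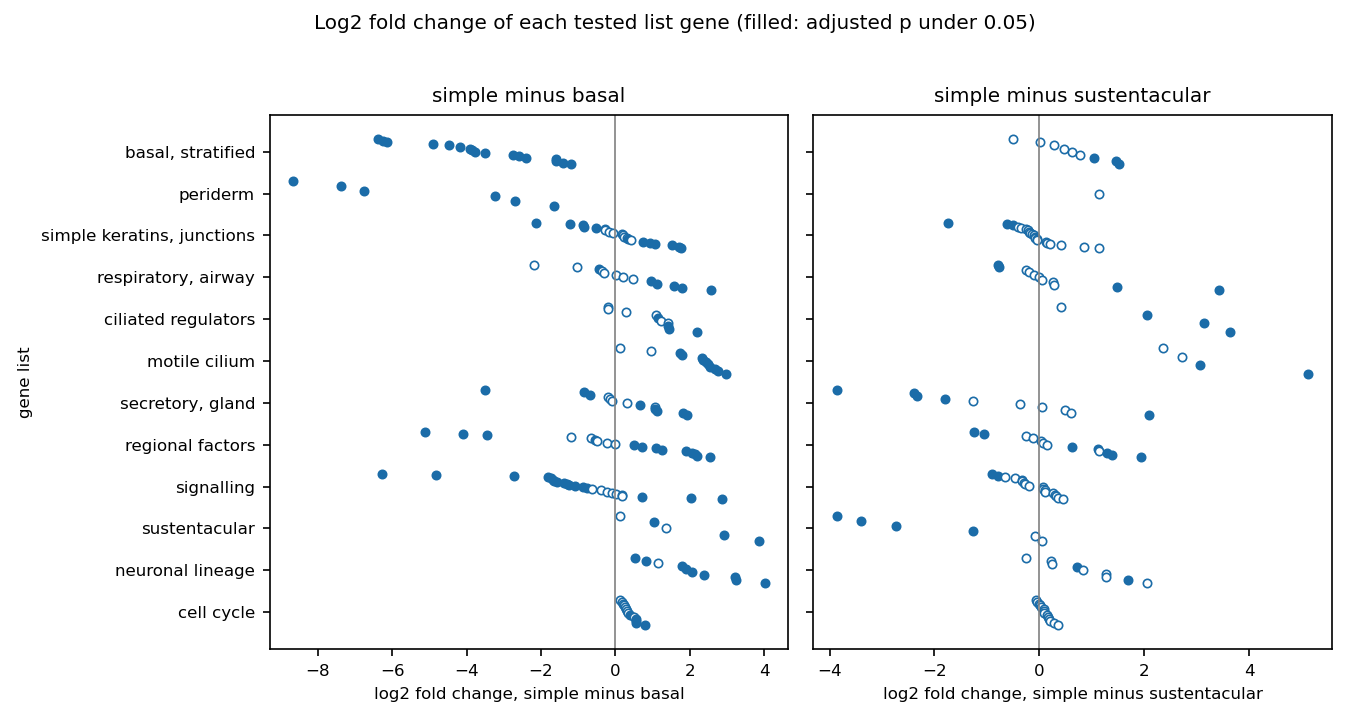
Log2 fold change of each tested gene of 12 lists, simple minus basal (left) and simple minus sustentacular epithelium (right), from 4 WT captures; filled points passed an adjusted p of 0.05. All 17 basal and all 6 periderm genes lie left of 0 in the left panel, and the tested motile cilium genes lie right of 0 in both panels.

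Within the simple epithelium, Aldh1a3, Ermn and Otx2 were counted together in single cells. Cells with an Ermn UMI were 35.7%, 39.2%, 51.6% and 21.7% of the simple epithelial cells of WT replicates 1, 2, 4 and 5, and those with an Otx2 UMI were 122 of 305, 252 of 439, 86 of 126 and 29 of 69. Of the cells with Aldh1a3, 28 of 50, 99 of 181, 35 of 53 and 6 of 19 also held Ermn in WT replicates 1, 2, 4 and 5, so that replicate 5 had the lowest share. In WT replicate 1, 4 of the 57 cells with at least 5 structural cilium genes held Ermn, and 19 of the 59 with at least 5 Bpifa1 UMIs did, compared with 109 of all 305. These cells share libraries and depth, so this is a description without a test. In the cells with Ermn the level of Hey1 was higher than in the others in all 4 WT captures, 116 against 45.1 CPM in replicate 1 and 125 against 75.0 CPM in replicate 2. Otx2 was 149 against 26.9 CPM in replicate 1, and Wnt4, a ligand, 257 against 113 CPM.

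The cells with ciliated regulators (Rfx2 and Rfx3 not counted) but fewer than 5 structural genes were high in Cbr2. It measured 873 against 415 CPM in replicate 1 and 207 against 86.3 CPM in replicate 2. In replicates 4 and 5 it measured 154 against 70.8 CPM and 185 against 107 CPM. The keratin Krt19 measured 558 against 195 CPM in replicate 1 and 86.7 against 47.5 CPM in replicate 2. In contrast, Dynlrb2 was at 6.84 CPM in these cells of replicate 1 and 507 CPM in the rest, as the choice of fewer than 5 structural genes sets.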

How the data were processed

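Gene by cell UMI counts were deposited per library as filtered matrices. They were made with Cell Ranger 6.0.1 (WT replicate 1), 7.0.0 (WT replicates 2 to 5) and 6.1.2 (Prokr2Cre libraries), per the file headers. The submitters' processing notes name mm10, Cell Ranger 4 and Seurat 4.3.0. The 30344 genes common to all libraries held 99.2% to 99.9% of UMIs. The members and gene lists were chosen with earlier results of these data known.

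UMIs were summed per capture and class (at least 10 cells), normalised by TMM, filtered with filterByExpr and tested with edgeR 4.0.16 (R 4.3.3), with the capture as a block, since both classes come from the same nose; the 10 genes of the rule were left out. Same-capture deviations of the classes correlated at 0.451 to 0.808 (basal) and 0.158 to 0.760 (sustentacular). Of genes changed 4-fold in simulated data, 97 of 100 (basal comparison, 11586 genes) were recovered, and of those changed 2-fold, 70 of 99. For the sustentacular comparison (9946 genes) these were 98 of 98 and 70 of 99. False calls were 11 of 178 and 20 of 188 calls in the basal and sustentacular simulations. Named genes were all list genes, plus the 12 called genes with the largest log2 fold change in each direction that moved one way in every capture and had a mean of at least 20 CPM in the higher class. Shares of cells with a UMI were compared after thinning to 2000 UMIs, which left out 1 to 21 simple epithelial cells per WT capture and 0 per Prokr2Cre library. Endothelial cells held at least 2 UMIs of Pecam1 and Cdh5 and none of Epcam, Krt8 and Krt18. Alternatives were DESeq2 1.42.0, other filters, gates and scalings, no block, and each capture left out. Promoters were read from RefSeq tables of GRCm38.p6. Some genes of the lists are counted but not reported here by name.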

Additional observations from a re-analysis of the deposited data

Results flagged for a closer look

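In each list sum or gene, 1 WT capture was marked where its gap to the nearest of the other 3, divided by the range, exceeded Dixon's 95% critical value for 4 samples. Of 82 such groups 21 were marked, where chance marks about 1 in 20, and the groups are not independent. The highest value was in WT replicate 1 in 17 of them, in replicate 5 in 3 and in replicate 4 in 1. Counting version and capture cannot be told apart for replicate 1.

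In simple epithelium of replicate 1 the motile cilium sum was 3143 CPM (70.3 to 163 CPM in the other WT captures). The secretory and gland sum was 3324 CPM (600.2 to 906 CPM) and the respiratory sum 1286 CPM (1021 to 1059 CPM). Replicate 1 was also highest in the other epithelial classes for the secretory and respiratory sums. In its sustentacular epithelium the secretory sum was 3756 CPM (743 to 2779 CPM), and in its basal epithelium 1784 CPM (655 to 753 CPM). The respiratory sum was 1839 CPM (947 to 1003 CPM) in its sustentacular and 1011 CPM (649 to 931 CPM) in its basal epithelium. Single axonemal genes marked in simple epithelium of replicate 1 were Dynlrb2 at 475 CPM, Tppp3 at 358, Rsph1 at 301, Mlf1 at 298, Pifo at 233, Tekt1 at 229 and Dnah5 at 56.0. The regulators Deup1 and Foxj1 were at 158 and 116 CPM. Among secretory and respiratory genes, Bpifa1 was at 2027 CPM, Cbr2 at 443, Agr2 at 80.7 and Tspan1 at 50.5. The epithelial gene Sfn was at 199 CPM.

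In replicate 5, Cdc20b was at 141 CPM (UMIs in 6 cells), Gmnc at 30.5 CPM and the summed endothelial markers at 24.7 CPM (2.00 to 2.98 in the others). In replicate 4, Pax6 was at 141 CPM (80.7 to 85.2 in the others).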

How the results depend on the processing

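Of the listed and named genes called against basal epithelium, 70 to 135 of 135 kept their call under each alternative, and against sustentacular epithelium 11 to 54 of 54; none of these calls reversed. With no replicate block the number of genes called fell from 2331 to 603 against basal epithelium, and from 683 to 41 (2 higher, 39 lower) against sustentacular epithelium. Leaving out 1 capture gave 1315 (without WT replicate 2) to 2228 (without WT replicate 1) calls against basal epithelium, with 1543 without replicate 4, and 429 (without WT replicate 4) to 626 (without WT replicate 5) against sustentacular epithelium, with 476 without replicate 2. A basal class that also held at least 2 UMIs of Krt8 and Krt18 gave 1434 calls. With no filter on low counts 1424 genes were called against sustentacular epithelium, 52.2% of them higher, compared with 28.8% as reported. DESeq2 called 1698 and 512. Thinning to 4000 in place of 2000 UMIs moved the median share of cells with a UMI over list genes from 2.70% to 4.747%. The causes of these shifts were not tested. The test of cells with against without Foxj1 and its alternatives were not run, since 1 WT capture alone had at least 10 cells with Foxj1. With the stricter cell filter WT replicate 5 had under 10 sustentacular cells and was left out. Depth limits single genes in Prokr2Cre library 2, with 15 cells.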
